A study of Homo sapiens with 4 samples.

Results

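The genes that make microRNAs and carry out silencing by them were examined in GIST-T1, an established cell line from a human gastrointestinal stromal tumor, after the cells had received a synthetic microRNA. The members are 10 genes fixed by name: DROSHA and DGCR8, XPO5, DICER1 and TARBP2, EIF2C1, EIF2C2 and EIF2C3 (the array's older names for the Argonaute genes AGO1, AGO2 and AGO3), and TNRC6A and TNRC6B. They are 10 of the 36337 gene names on the array, and all 14 of their probes were kept, of 50599 probes in all. Each of the 14 probes was well above background on all 4 arrays, so no member was lost to the filter on dim probes, and all 14 probe accessions matched a RefSeq gene.

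There were 2 arrays of cells transfected with a miR-335 mirVana mimic and 2 of cells transfected with mirVana miRNA mimic Negative Control #1. All 4 samples received 100 pmol of RNA by nucleofection, and total RNA was taken 48 h later, of which 100 ng was labeled with Cy3 for a 1-color Agilent array. The title and the transfection label of the mimic arrays name miR-335, whereas a further line in their descriptions names miR-34a; the groups follow the title and the transfection label. The labels do not say which arm of the miR-335 precursor the mimic represents, and nothing in them says that the replicates came from separate cultures, so the p-values measure the spread between these arrays, which may be technical.

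A microRNA is cut from a long nuclear transcript by the Microprocessor, in which DROSHA is the nuclease and DGCR8 its RNA-binding partner. Exportin-5, the product of XPO5, carries the resulting hairpin to the cytoplasm, where DICER1 with its partner TARBP2 cuts it to a duplex. An Argonaute protein keeps a single strand of the duplex and pairs it with target mRNAs, and the TNRC6 proteins, the human GW182 family, bind Argonaute and recruit the enzymes that remove the poly(A) tail and the cap. A transfected mimic is already a short duplex, so it enters this pathway after the Microprocessor and Dicer steps and uses the same Argonaute and TNRC6 proteins as the cell's own microRNAs.

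The labels do not give the sequence of the mimic itself. The natural MIR335 sequences are shown here because the seed of a microRNA decides which transcripts it can pair with. The MIR335 hairpin lies at chr7:130496111-130496204 on the plus strand of GRCh38.p14, and in the RefSeq sequences below the capitals mark both mature arms in the hairpin and the seed, bases 2 to 8, in each mature arm.
MIR335 hairpin: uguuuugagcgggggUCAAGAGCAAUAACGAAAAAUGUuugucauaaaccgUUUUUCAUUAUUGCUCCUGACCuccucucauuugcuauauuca
hsa-miR-335-5p: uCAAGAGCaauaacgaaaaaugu
hsa-miR-335-3p: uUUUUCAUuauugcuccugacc
The DNA letters complementary to the 5p seed, GCTCTTG, were found as printed in 221 of the 50599 probe sequences (0.437%) and in 0 of the 14 member probes. The letters complementary to the 3p seed, ATGAAAA, were found in 618 probes (1.22%) and again in 0 member probes. On the other strand, CAAGAGC was in 236 probes (0.466%) and 0 member probes, and TTTTCAT was in 513 probes (1.01%), of which 1 was a member probe, for EIF2C3. A probe covers only 60 bases of a transcript, so these counts concern those windows alone.

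Values below are log2 processed signals minus the array's own 75th percentile, and a change is the mimic mean minus the control mean, with its limma standard error and n = 2 arrays a group. The share of probes well above background was 40.3% to 41.9% per array. The 4 arrays lay on 1 slide and were read in 1 scan, with the controls at positions 1 and 2 and the mimics at positions 3 and 4, so array position and group cannot be told apart. The GIST markers KIT, ANO1, ETV1, PRKCQ and PDGFRA were well above background on all 4 arrays, whereas PTPRC, CD3E, PECAM1, VWF, KRT19 and CDH1, which define other cell types, were above background on none; CDH5 was above it on some arrays, and EPCAM, KRT8, KRT18 and CD14 on all. Of the 17 marker probes tested, 0 were called in limma, where 2.62% of all tested probes were. Their changes ran from -0.89, for EPCAM, to 0.47, for 1 of the ANO1 probes, and a KIT probe was at -0.33 (adjusted p = 0.287, 0.0533 and 0.0512 in limma). The remaining ANO1 probe was at -0.07, and the remaining KIT probes were at -0.14 and -0.06. In RNA from whole cultures, fewer cells with a transcript and less of it per cell cannot be told apart.

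The comparison asked whether any gene of the pathway differed in mRNA signal between cells given the mimic and cells given the control RNA. Of the 14 member probes, 0 passed an adjusted p of 0.05 in limma, where 2.62% of the 20328 tested probes did. At an unadjusted p under 0.05 there were 3 member probes, for DGCR8, XPO5 and TARBP2, where 25.3% of tested probes were below that value. The change was positive for 9 member probes and negative for 5 (2 and 12 with arrays scaled to external spike-in probes), with a median of 0.03 against -0.01 over all tested probes. The median size of a member change, without its sign, was 0.09 against 0.10 over all probes.

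The member changes were small. None of the 14 probes differed by more than 1.5-fold between group means, where 3.9% of tested probes did (1.47% lower and 2.43% higher), and the largest difference was 0.31 on the log2 scale, for 1 probe of XPO5. Under this scaling, filter and limma fit, the 95% interval of the change lay wholly within 1.5-fold in either direction for 14 of 14 member probes. It did so for 83.2% of all tested probes. Whether 14 of 14 holds under other filters or tests was not tested. The half-width of the 95% interval ran from 0.10 to 0.30 over the members, with a median of 0.13. It marks the smallest change that passes without adjustment, and a call after adjustment needed a larger one. The changes of DGCR8, XPO5 A_33_P3228366 and TARBP2 exceeded their half-widths, and none of them was called. The KIT probe with the largest change of that gene, -0.33 ± 0.04, was not called either (adjusted p = 0.0512 in limma). With 2 arrays a group, changes somewhat above the half-width could therefore be missed as well. The mimic and control arrays did not overlap for 10 of the 14 probes (71.4%), 6 with the mimic arrays higher and 4 with them lower, where 59.7% of tested probes did not overlap (27.1% with the mimic arrays higher and 32.5% with them lower).

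**Figure D1:**
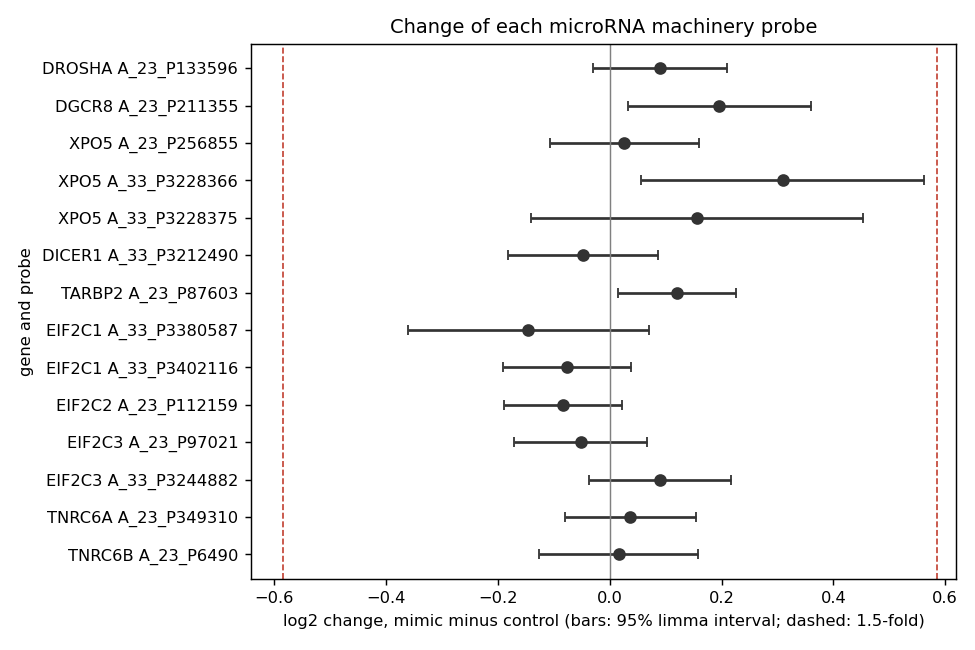
Change of each of the 14 member probes (points; horizontal axis, log2 mimic mean minus control mean, n = 2 arrays a group) with its 95% limma interval (bars), by gene and probe on the vertical axis; dashed lines mark 1.5-fold. All 14 intervals end inside the dashed lines, where 83.2% of all tested probes have such an interval. Of the 14, 3 lie wholly above 0 under the 75th percentile scaling, for DGCR8, XPO5 A_33_P3228366 and TARBP2. An interval without 0 equals an unadjusted limma p under 0.05, which 25.3% of tested probes had in either direction.

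Both Microprocessor genes had their mimic arrays above their control arrays, though the DROSHA change turned to -0.10 with arrays scaled to external spike-in probes. The DROSHA probe (A_23_P133596, hg19 chr5:31401473-31401532, minus strand) gave 4.60 and 4.64 in the mimic arrays and 4.51 and 4.55 in the controls. The groups did not overlap, and the change of 0.09 ± 0.04 was not called (95% interval -0.03 to 0.21, adjusted p = 0.284 in limma). The DGCR8 probe (A_23_P211355, chr22:20098916-20098975, plus strand) gave 0.07 and -0.02 in the mimic arrays and -0.21 and -0.13 in the controls. Every mimic value was above every control value, and the change was 0.20 ± 0.06 (95% interval 0.03 to 0.36, unadjusted p = 0.0302, adjusted p = 0.157 in limma). DROSHA and DGCR8 are known to regulate each other, DROSHA by cutting a hairpin in the DGCR8 mRNA and DGCR8 by stabilizing the DROSHA protein.

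XPO5, the nuclear export receptor for precursor hairpins, was measured by 3 probes that lie within 3841 bases of each other on chromosome 6, minus strand. The probe A_33_P3228366 (chr6:43494424-43494483) gave -0.07 and 0.15 in the mimic arrays and -0.25 and -0.28 in the controls. Its groups did not overlap, but its mimic arrays stood farther apart than the controls did, and the change was 0.31 ± 0.09 (95% interval 0.06 to 0.56, unadjusted p = 0.0283, adjusted p = 0.153 in limma), or 0.20 without mimic replicate 2. The probe A_23_P256855 (chr6:43490583-43490642) gave 1.38 and 1.37 in the mimic arrays and 1.31 and 1.39 in the controls, which overlap. Its change of 0.03 ± 0.05 (adjusted p = 0.749 in limma) turned to -0.01 without control replicate 1. The remaining XPO5 probe, A_33_P3228375 (chr6:43491398-43491457), gave -1.67 and -1.91 in the mimic arrays and -1.996 and -1.902 in the controls. Its groups overlap as well, and the change was 0.16 ± 0.10 (adjusted p = 0.41 in limma), 0.04 without mimic replicate 1 and 0.28 without mimic replicate 2.

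The 3 XPO5 probes were compared within each array, since a difference between probes of a gene cancels what an array adds to all of them. The signal of A_23_P256855 minus that of A_33_P3228366 was 1.45 and 1.22 in the mimic arrays and 1.56 and 1.67 in the controls. The shift of -0.28 gave p = 0.333 in a two-sided exact permutation test, the smallest value that 2 arrays against 2 can give. That test cannot pass a threshold of 0.05 here, so the 5 pairs of probes compared within XPO5, EIF2C1 and EIF2C3 are given as descriptions.

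DICER1 and TARBP2, which work as partners, had changes of opposite sign, which were both negative with arrays scaled to external spike-in probes. The DICER1 probe (A_33_P3212490, chr14:95552615-95552674, minus strand) gave 3.47 and 3.54 in the mimic arrays and 3.53 and 3.57 in the controls. These values overlap, and the change was -0.05 ± 0.05 (95% interval -0.18 to 0.09, adjusted p = 0.559 in limma), or -0.01 without mimic replicate 1. The TARBP2 probe (A_23_P87603, chr12:53899897-53899956, plus strand) gave 2.38 and 2.40 in the mimic arrays and 2.28 and 2.26 in the controls. The groups did not overlap and each was tight, and the change was 0.12 ± 0.04 (95% interval 0.02 to 0.22, unadjusted p = 0.0342, adjusted p = 0.166 in limma). Whether the DICER1 change differs from the TARBP2 change was not tested.

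The TARBP2 probe is shown because its first frame holds a stop codon, unlike its other frames. Which frame codes for protein was not tested. The sequence holds the first 36 bases of the probe, and the capitals mark the first stop codon in its first frame.
TARBP2 A_23_P87603, bases 1 to 36: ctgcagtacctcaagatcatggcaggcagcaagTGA

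Of the 5 Argonaute probes, 4 had a negative change and 1 a positive one, with a median of -0.08 (all 5 were negative under the spike-in scaling), and none was called under the main scaling (adjusted p between 0.262 and 0.482 in limma). With spike-ins 4 of the 5 were called lower, all but EIF2C3 A_33_P3244882, where 44.6% of tested probes were. The groups did not overlap for any of the 5, where 59.7% of all tested probes did not. EIF2C1, which encodes Argonaute 1, was read by the probe A_33_P3402116 (chr1:36389840-36389899, plus strand) at 3.92 and 3.93 in the mimic arrays and 3.97 and 4.02 in the controls. That is a change of -0.08 ± 0.04 (adjusted p = 0.325 in limma). Its other probe, A_33_P3380587 (chr1:36386500-36386559), gave 0.50 and 0.57 in the mimic arrays and 0.76 and 0.60 in the controls, with the control arrays farther apart than the mimic arrays. The change was -0.15 ± 0.07 (adjusted p = 0.318 in limma), and it was -0.07 without control replicate 1 and -0.23 without control replicate 2.

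EIF2C2 encodes Argonaute 2, the human Argonaute best known for cutting a fully paired target. Its probe A_23_P112159 was printed at 10 spots on each array, more than any other member, which shows the spread of the measurement within an array. The spot means were 4.30 and 4.32 in the mimic arrays and 4.39 and 4.39 in the controls, and the change was -0.08 ± 0.04 (95% interval -0.19 to 0.02, unadjusted p = 0.0886, adjusted p = 0.262 in limma). The spots ran from 4.22 to 4.39 and from 4.21 to 4.39 in the mimic arrays, and from 4.27 to 4.51 and from 4.27 to 4.47 in the controls. Spots of different groups therefore overlap although the array means do not. The SD between spots of an array was 0.05 to 0.08, and spots of an array share its RNA and are not replicates. Before scaling, the mean intensities were 3741 and 3653 in the mimic arrays and 3765 and 3820 in the controls.

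**Figure D2:**
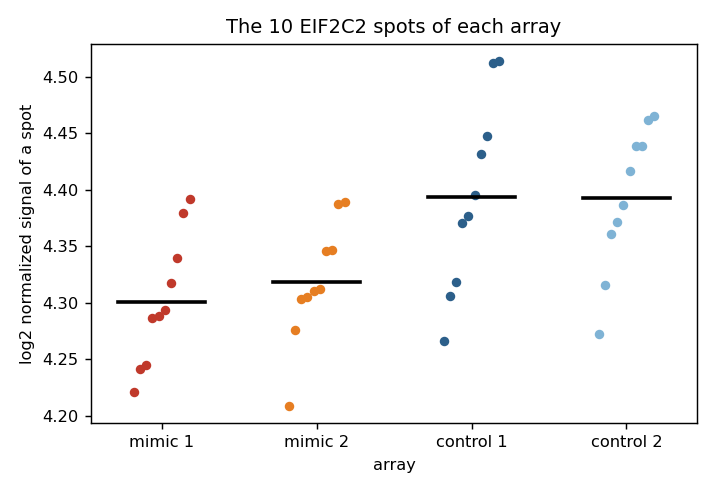
Log2 normalized signal (vertical axis) of each of the 10 EIF2C2 spots on each of the 4 arrays (horizontal axis), sorted by value within the array, with the array mean as a black line. Array means are 4.30 and 4.32 with the mimic and 4.39 and 4.39 with the control, and the spots of the groups overlap.

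EIF2C3, which encodes Argonaute 3, was read by 2 probes that lie 82500 bases apart on chromosome 1 and had changes of opposite sign, both negative under the spike-in scaling. The probe A_23_P97021 (chr1:36521552-36521611, plus strand) gave 2.53 and 2.58 in the mimic arrays and 2.60 and 2.62 in the controls. The probe A_33_P3244882 (chr1:36439052-36439111, plus strand) gave 2.55 and 2.61 in the mimic arrays and 2.48 and 2.50 in the controls. The first probe was lower in both mimic arrays by a mean of 0.05, a change of -0.05 ± 0.04 (adjusted p = 0.482 in limma), and the other higher by 0.09 ± 0.04 (adjusted p = 0.301). The first minus the other was -0.02 and -0.03 in the mimic arrays and 0.11 and 0.12 in the controls, a shift of -0.14. These differences did not overlap between groups and lay close together within each, and with 2 arrays against 2 no exact permutation test could pass (p = 0.333, the smallest it can give).

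The EIF2C3 probe that lies upstream is shown because its first frame holds no stop codon, unlike its other frames.
EIF2C3 A_33_P3244882: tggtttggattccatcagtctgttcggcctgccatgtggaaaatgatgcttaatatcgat

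The member GW182 scaffold genes, TNRC6A and TNRC6B, had the smallest changes among the members' role groups, positive here and negative under the spike-in scaling. TNRC6C, the GW182 gene outside the members, is described further below. TNRC6A (A_23_P349310, chr16:24835610-24835669, plus strand) gave 0.87 and 0.86 in the mimic arrays and 0.85 and 0.80 in the controls. The groups did not overlap, by a margin smaller than the gap between the control arrays, and the change was 0.04 ± 0.04 (adjusted p = 0.609 in limma). TNRC6B (A_23_P6490, chr22:40719222-40719281, plus strand) gave 1.16 and 1.24 in the mimic arrays and 1.20 and 1.16 in the controls. These values overlap, and the change of 0.02 ± 0.05 (adjusted p = 0.862 in limma) turned to -0.02 without mimic replicate 2 and to -0.01 without control replicate 2.

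**Figure D3:**
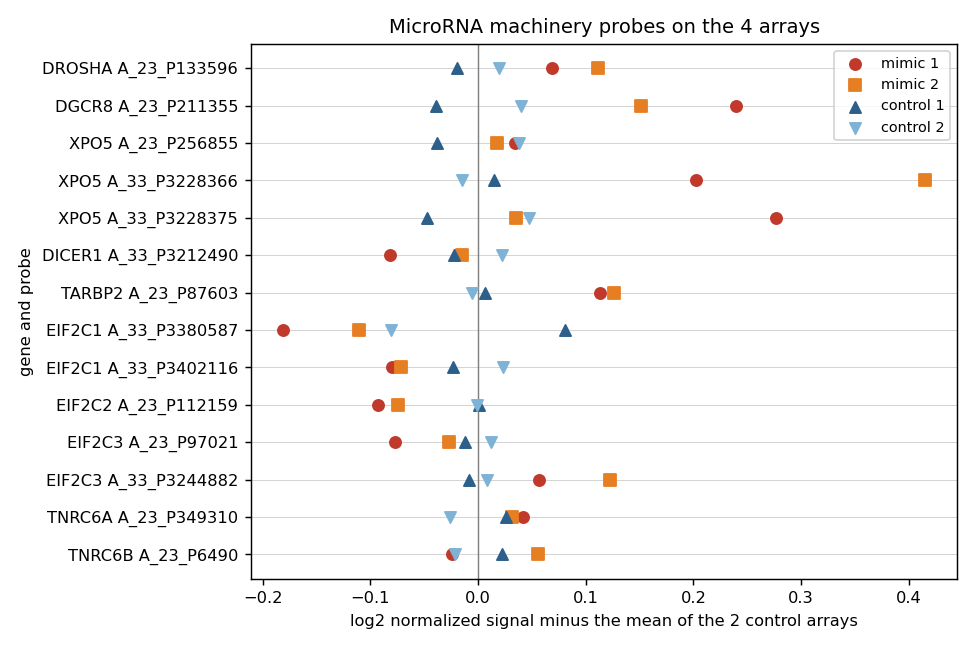
Log2 normalized signal of each member probe on each of the 4 arrays, minus the mean of the 2 control arrays (horizontal axis), by gene and probe (vertical axis); red and orange symbols are mimic arrays and blue symbols control arrays. The mimic symbols lie apart from the control symbols for 10 of 14 probes, to the right for 6 and to the left for 4 under the 75th percentile scaling; over all tested probes 59.7% lay apart, 27.1% to the right and 32.5% to the left.

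The signs of these small changes depended on the scaling. With arrays scaled to the 7 usable external spike-in probes, the median of all tested probes moved from -0.01 to -0.20, and the changes of DROSHA, TARBP2, TNRC6A, TNRC6B, XPO5 A_23_P256855, XPO5 A_33_P3228375 and EIF2C3 A_33_P3244882 turned negative. Under that scaling 7 of the 14 member probes were called, all lower, where 47.2% of tested probes were called and 44.6% were called lower: those of DICER1, EIF2C2, TNRC6A and TNRC6B, both of EIF2C1, and EIF2C3 A_23_P97021. Both scalings subtract a single value per array, so every change shifts by the same amount. The member median relative to that of all tested probes is therefore 0.05 under either scaling by construction. The methods' t-test, applied here to each probe with equal variances and without adjustment, called 2 member probes, TARBP2 higher and EIF2C2 lower, where it called 20.2% of tested probes. The paper names t tests for continuous variables in general, and for the arrays it reports a limit of 1.5-fold. DGCR8 and XPO5 A_33_P3228366 kept a positive sign under the spike-in scaling, at 0.01 ± 0.06 and 0.12 ± 0.08. Neither was called there (adjusted p = 0.91 and 0.28 in limma).

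**Figure D4:**
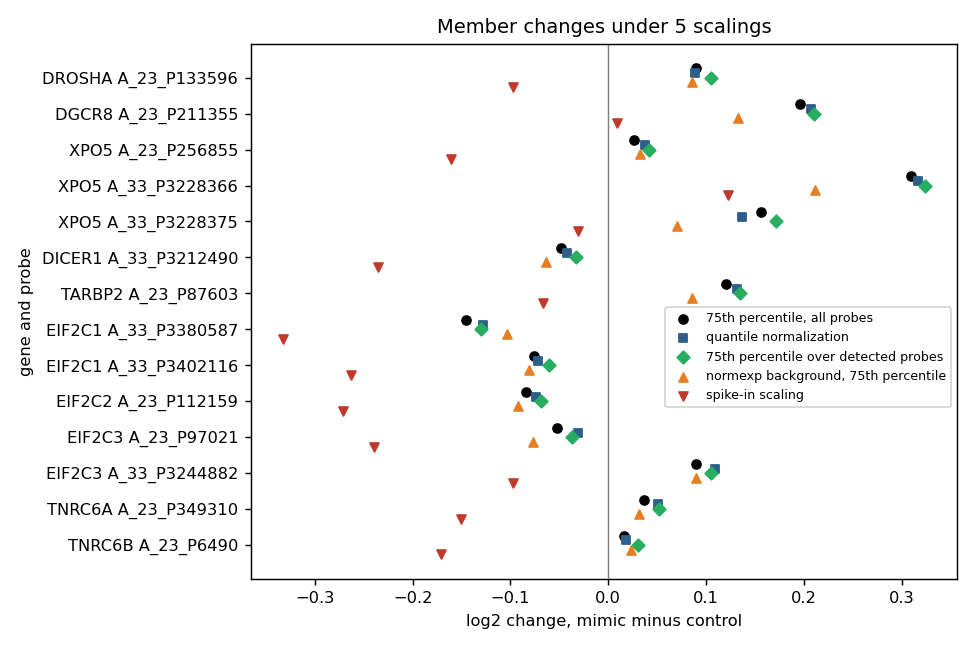
Log2 change (horizontal axis, mimic minus control) of each member probe (vertical axis) under 5 scalings: the 75th percentile over all probes (circles), quantile normalization (squares), the percentile over detected probes (diamonds), normexp background correction (upward triangles) and external spike-ins (downward triangles). The spike-in symbols lie to the left of the others for every probe, and 7 of them fall left of 0 where the circle is right of it.

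The wider pathway was described with 65 other genes, listed by role from general knowledge, of which 60 had a tested probe (93 of 115 probes). In limma, 0 of the 93 probes were called lower, where 1.15% of tested probes were, and 1 was called higher, where 1.47% were. At an unadjusted p under 0.05 there were 11, against 25.3% of all tested probes. The change was positive for 43 probes and negative for 50 (10 and 83 under the spike-in scaling), with a median of -0.01, and 0 differed by more than 1.5-fold. LIN28A and LIN28B, which block maturation of let-7 microRNAs, and LIMD1 and PAPD5 had no probe that passed the filter, and no probe carried the name ZSWIM8.

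The called probe carries the gene name of HNRNPA1, an RNA-binding protein known to assist the processing of particular microRNA precursors. This probe (A_33_P3384260, chr12:54680787-54680846, plus strand) gave 1.39 and 1.37 in the mimic arrays and 0.92 and 0.92 in the controls. The groups were far apart relative to their spread, and the change was 0.46 ± 0.04 (adjusted p = 0.0368 in limma). The other HNRNPA1 probes had changes of 0.08 and -0.03 and were not called (adjusted p = 0.318 and 0.694 in limma), so the call is for 1 of the gene's 3 probes. The accession of the called probe matched no RefSeq gene, while those of the other HNRNPA1 probes did. The call was lost whenever any 1 array was left out, with adjusted p between 0.152 and 0.196, while the change stayed between 0.45 and 0.47. HNRNPA1 has many processed copies in the genome, and whether this probe also reads them was not tested.

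Of the other nuclear cofactors, the splicing factor SRSF3, which is known to bind primary microRNA transcripts, had the most negative change, at -0.23 (values 3.12 and 3.36 against 3.45 and 3.50, adjusted p = 0.254 in limma), which was -0.11 without mimic replicate 1 and -0.35 without mimic replicate 2; its other probe was at -0.09. Under the spike-in scaling the SRSF3 change was -0.42 and was called lower (adjusted p = 0.0389 in limma), where 44.6% of tested probes were. The cofactors as a group had a median of 0.07 over 22 probes, the highest of the role groups listed beside the members. Among loading factors (20 probes, median -0.03), EIF2C4, the gene for the remaining Argonaute, gave -1.48 and -2.30 in the mimic arrays and -1.61 and -1.57 in the controls. Its change of -0.30 rests on mimic replicate 2, and without that array it was 0.11. The chaperone gene HSP90AA1, whose protein holds Argonaute open for loading, had the most positive change of that group, at 0.13, and -0.06 under the spike-in scaling (adjusted p = 0.218 in limma under the main scaling).

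Among silencing and decapping factors (24 probes, median -0.04), TNRC6C, the remaining GW182 gene, had the most negative change, at -0.25 (values -2.08 and -2.28 against -1.87 and -1.98, adjusted p = 0.209 in limma). Its other probe gave 1.85 and 1.87 against 2.04 and 2.00, a change of -0.16 (adjusted p = 0.135 in limma). Neither TNRC6C probe overlapped between groups, as was so of 59.7% of all tested probes, and the first was at -0.15 without mimic replicate 2. Under the spike-in scaling the first was at -0.44 and was called lower (adjusted p = 0.0346 in limma), where 44.6% of tested probes were. EDC4, a scaffold of the decapping complex, had the most positive change, at 0.22, on a probe whose groups overlap, while its other probe was at -0.01. The change of 0.22 was 0.05 without mimic replicate 2, 0.39 without mimic replicate 1 and 0.04 under the spike-in scaling.

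Among deadenylase subunits (16 probes, median -0.03), the CCR4-NOT subunit gene CNOT3 had the most negative change, at -0.13 (adjusted p = 0.272 in limma), or -0.07 without mimic replicate 2, while its other probe was at 0.03. Under the spike-in scaling the CNOT3 change of -0.13 became -0.32 and was called lower (adjusted p = 0.0284 in limma), where 44.6% of tested probes were. PAN2, the catalytic subunit of the PAN2-PAN3 deadenylase, had the most positive change, at 0.54, with values of -1.14 and -0.32 in the mimic arrays and -1.20 and -1.34 in the controls. That change had a standard error of 0.31 (adjusted p = 0.359 in limma) and ran from 0.13 to 0.95 as single arrays were left out, 0.13 being the value without mimic replicate 2. Among modification and turnover factors (11 probes, median 0.02), ZCCHC11, which adds uridines to microRNA precursors, was at -0.07 and the exonuclease gene DIS3L2, which degrades uridylated precursors, at 0.27 (adjusted p = 0.498 and 0.246 in limma). ZCCHC11 was at -0.01 without control replicate 2 and -0.12 without control replicate 1. With spike-ins it was at -0.26 and was called lower (adjusted p = 0.0384 in limma). The DIS3L2 probe was at 0.13 without control replicate 1, 0.41 without control replicate 2 and 0.08 under the spike-in scaling, and the other tested DIS3L2 probes were at -0.01 and 0.26.

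**Figure D5:**
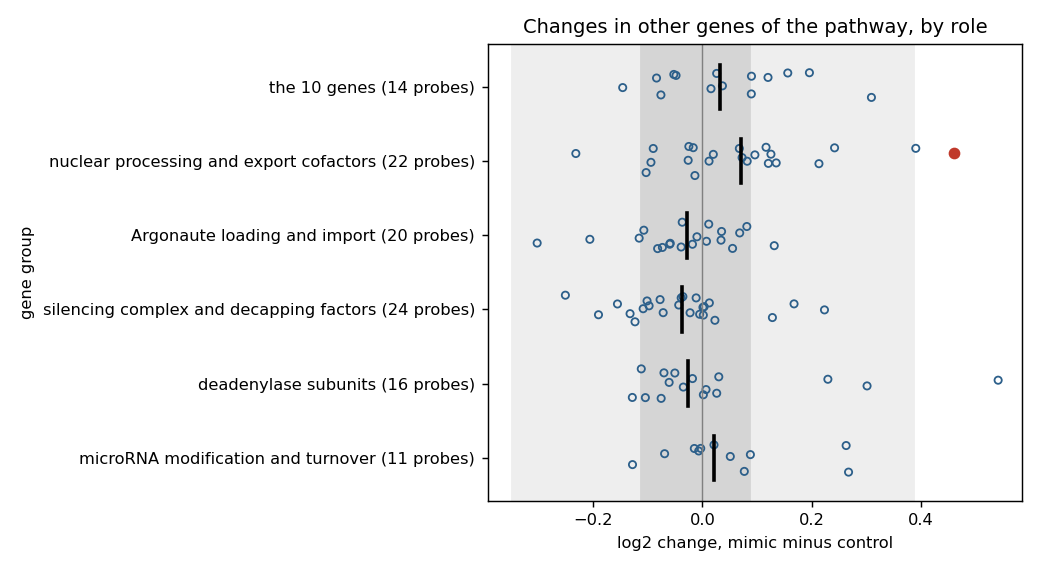
Log2 change (horizontal axis, mimic minus control) of each tested probe of the 10 genes and of the 5 role groups of other pathway genes (vertical axis; points are jittered vertically); black bars are group medians, and the dark and light bands hold the middle 50% and 90% of all 20328 tested probes. The filled red point is the HNRNPA1 probe, the only pathway probe called.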

How the data were processed

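The scanner files deposited by the authors hold spot intensity values from Feature Extraction 10.7.3.1, per the file headers, as background-subtracted and detrended processed signal without normalization between arrays. The mean and local background intensity, and flags for outlier, saturated and well-above-background spots, came from the same deposited files; the deposited table of the whole series holds the processed intensity rounded and was an alternative. Values in columns matched to no sample numbered 0. Gene names and hg19 positions are those of the files, and Argonaute names there are the older EIF2C symbols.

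Here, spots flagged as outliers (356 to 395 per array) were left out, spots of a probe were averaged as log2 intensity, and the array's 75th percentile over all probes (178.8 to 189.7 intensity units) was subtracted. No spot was saturated. Probes were kept if either group had both of its arrays well above background, and were tested with limma 3.58.1 in R 4.3.3 (lmFit, eBayes) without covariates, with Benjamini-Hochberg adjustment over 20328 probes at 0.05. The number of arrays limits the precision. The test was checked on simulated data. Probes of a gene were compared by exact permutation. No comparison of level was made between probes. Alternatives were other scalings and background corrections, other filters, a replicate block, leaving out each array, other moderation and the methods' t-test. All 10 members were named, and of the pathway list each called gene and, per role, the most negative and most positive change among probes detected on all arrays; further probes of SRSF3, HNRNPA1, TNRC6C, EDC4, CNOT3 and DIS3L2 are given beside them. A further cell type marker, beside those given, is not reported here. The members, lists and alternatives were chosen with earlier results of these data known. Figures were drawn with matplotlib 3.10.9.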

Additional observations from a re-analysis of the deposited data

How the results depend on the processing

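The member count of 0 calls held under quantile normalization, the percentile over detected probes, normexp, the series table, both filters, the replicate block, both moderations, the adjusted t-test and every array left out (0 to 0); it was 7 with spike-in scaling, where 47.2% of tested probes were called, and 2 by the methods' t-test without adjustment (TARBP2 higher, EIF2C2 lower), where 20.2% of tested probes passed. No member exceeded 1.5-fold under any alternative run. The member median was 0.0440 under quantile normalization, 0.0466 with the percentile over detected probes, -0.156 with spike-ins, and 0.0337 to 0.04995 with single arrays left out. With no filter the member median was 0.0314, below the median of 0.0439 over all probes then kept.

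For all tested probes, the 532 calls became 9592 with spike-ins (9076 lower and 516 higher, against 233 and 299), 1550 with normexp, 3083 with an intensity trend (1736 lower and 1347 higher), and 4115 by the t-test without adjustment, but 0 with no filter (3627 at unadjusted p under 0.05), 0 by the adjusted t-test, and 0 to 8 with single arrays left out. Of the 93 tested pathway probes, the 1 call became 55 with spike-ins (54 lower and 1 higher), where 47.2% of all tested probes were called. By the unadjusted t-test it became 12, where 20.2% of all tested probes passed. There were 2 pathway calls with normexp (0 lower and 2 higher) and 8 with the trend (4 lower and 4 higher), where 1550 and 3083 of all 20328 tested probes were called. There were 0 pathway calls with no filter and by the adjusted t-test. HNRNPA1 lost its call with no filter (adjusted p = 0.441 in limma). With the replicate block, all probes called and pathway probes called were both 0 (4400 and 8 at unadjusted p under 0.05); same-numbered arrays did not deviate together (r = 0.03 over probes), so the numbers show no pairing.

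Of the 24 probes followed singly (14 member probes and 10 named pathway probes), those that turned sign with spike-ins were DROSHA (-0.10), XPO5 A_23_P256855 (-0.16) and A_33_P3228375 (-0.0309), TARBP2 (-0.0670), EIF2C3 A_33_P3244882 (-0.10), TNRC6A (-0.15), TNRC6B (-0.17) and HSP90AA1 (-0.0556). With single arrays left out, 3 of these 24 turned sign: TNRC6B (-0.0241 to 0.0556), XPO5 A_23_P256855 (-0.0122 to 0.0644) and EIF2C4 (-0.710 to 0.105). The causes were not tested. A block for slide or scan could not be fitted, as there was 1 of each. With 2 arrays a group, the half-widths of the member intervals, 0.10 to 0.30, mark the smallest changes that pass without adjustment. A call after adjustment needed a larger change.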
